A study of Mus musculus with 6 samples.

Results

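Septins 2, 4, 7 and 8 and the scaffold protein anillin are components of the myelin sheath of the central nervous system. Their genes, Sept2, Sept4, Sept7, Sept8 and Anln, were taken by name from the 24062 genes of the count files. All 5 were found, and all 5 had enough counts to be tested. Septins are GTP-binding proteins of the cytoskeleton that join end to end into filaments. In mature oligodendrocytes these filaments run along the myelin sheath, and anillin, which binds septins and the membrane lipid PI(4,5)P2, promotes their assembly. In mice, loss of Sept8 or of Anln from oligodendrocytes is known to leave myelin with outfoldings.

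RNA was taken from optic nerves, in which oligodendrocytes wrap the axons of retinal ganglion cells. The NF1 f/f group had 3 libraries of the genotype PlpCreERT2;Nf1flox/flox, in which a tamoxifen-inducible Cre recombinase driven by the Plp promoter, active in oligodendrocytes, can delete Nf1. Nf1 encodes neurofibromin, which lowers Ras activity. The Ctrl group had 3 libraries whose labels list no Cre, of the genotypes Nf1flox/flox (library 1) and Nf1flox/+ (libraries 2 and 3). All animals were more than 2 months old when given tamoxifen, and nerves were taken 1 month later, so the controls carried floxed Nf1 alleles and had the drug as well. The Plp promoter is also active in Schwann cells. The labels do not say whether each library is 1 animal or a pool, so p-values measure the spread between libraries, which may be technical in part.

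Libraries held 13555756 to 19012262 counts in NF1 f/f and 21307855 to 23662698 counts in Ctrl. Nf1 itself had 304, 226 and 433 CPM (each count relative to the scaled total of its library) in NF1 f/f libraries 1, 2 and 3, against 394, 400 and 337 CPM in Ctrl libraries 1, 2 and 3. Those groups overlapped, and a count per gene cannot show a deleted exon. NF1 f/f library 2 stood apart from NF1 f/f libraries 1 and 3. A list of 22 genes of myelin and mature oligodendrocytes summed to 7757, 43949 and 6585 CPM in NF1 f/f libraries 1, 2 and 3, against 34563, 36208 and 35299 CPM in Ctrl libraries 1, 2 and 3. Neuron markers, 16 of 16 present in the files, summed to 2843 to 9332 CPM in NF1 f/f and 1245 to 2002 CPM in Ctrl. Markers of striatal projection neurons, which do not belong to the nerve, summed to 1940 to 2816 CPM in NF1 f/f and 230 to 280 CPM in Ctrl, and none of the 12 was at 0. Fibroblast markers were lower with no overlap for 10 of 10 genes, and endothelial and mural markers for 9 of 10, as were 11.5% of all genes. The fibroblast markers summed to 384 to 1848 CPM in NF1 f/f and 2396 to 3169 CPM in Ctrl. Of the neuron and striatal genes, 7 of 16 and 12 of 12 passed the test described below as higher, as did 2.95% of all genes. The part of these markers in the results below was not tested. Of 10 Schwann cell markers, 3 had too few counts to be tested. Xist had 30602 to 51760 counts in NF1 f/f, against 58, 72727 and 34 in Ctrl libraries 1, 2 and 3. Genes of the Y chromosome had 0 counts in each NF1 f/f library, against 6275, 0 and 7213 in Ctrl libraries 1, 2 and 3. Sex thus differed within the controls and was not balanced between the groups.

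No member passed the test between NF1 f/f and Ctrl nerves over all 6 libraries, and NF1 f/f libraries 1 and 3 had less of all 5 transcripts than any Ctrl library, while NF1 f/f library 2 did not. By edgeR's quasi-likelihood test, 0 of the 5 members had an adjusted p under 0.05, where 3.29% of the 16315 genes tested passed in either direction and 0.337% passed as lower. At an unadjusted p under 0.05 the count was also 0 of 5 by edgeR, against 19.2% of all genes. It was 1 of 5 by DESeq2, which was Anln, against 20.9% of all genes, and 3 of 5 by limma-voom, which were Sept2, Sept4 and Anln, against 22.5% of all genes. It was 1 of 5 by edgeR with no filter on low counts, again Anln, against 16.9% of all genes. After adjustment it was 0 of 5 by DESeq2 and by limma-voom, where 9.17% and 3.1% of all genes passed. The count was also 0 of 5 under 5 other scalings of the libraries, with 3.41%, 3.23%, 3.53%, 3.26% and 19.4% of genes passing, and 2 other filters, with 4.07% and 3.5%. The last of these scalings, to the myelin genes described below, moved the median of all genes by 1.82 on the log2 scale and put Sept2, Sept4, Sept7 and Sept8 above 0 and Anln below 0. The median log2 fold change of the 5 was -0.59, beside -0.0017 over all genes. In nerve RNA, fewer cells of a type and less RNA per cell cannot be told apart.

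The transcripts of the 5 members were lower together in NF1 f/f libraries 1 and 3 but to unequal extents. Their promoters are shown as sequence only, and any part of them in those levels was not tested. The 250 bases before the start were taken from RefSeq on GRCm38.p6, the assembly of mm10, at chr1:93478743-93478992 for Sept2, chr11:87578139-87578388 for Sept4, chr11:53519486-53519735 for Sept8, chr9:22389207-22389456 on the minus strand for Anln and chr9:25251741-25251990 for Sept7. RefSeq names the septin genes Septin2, Septin4, Septin7 and Septin8. Of 4 listed starts for Sept4, 2 each for Sept2, Sept7 and Sept8 and 1 for Anln, the start nearest to that of the count files was used. It is that of the count files for each gene but Sept7, where it lies 448 bases away. Capitals mark a GC box (GGGCGG) in Sept2, Sept4 and Anln, and in Sept7 a SOX core (ACAAAG), followed by a CHR element (TTTGAA), on either strand.
Sept2: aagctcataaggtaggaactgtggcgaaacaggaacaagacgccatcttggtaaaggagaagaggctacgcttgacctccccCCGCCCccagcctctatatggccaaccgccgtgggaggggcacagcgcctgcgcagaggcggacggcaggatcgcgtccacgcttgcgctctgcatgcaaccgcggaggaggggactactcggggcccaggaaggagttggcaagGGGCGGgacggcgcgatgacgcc
Sept4: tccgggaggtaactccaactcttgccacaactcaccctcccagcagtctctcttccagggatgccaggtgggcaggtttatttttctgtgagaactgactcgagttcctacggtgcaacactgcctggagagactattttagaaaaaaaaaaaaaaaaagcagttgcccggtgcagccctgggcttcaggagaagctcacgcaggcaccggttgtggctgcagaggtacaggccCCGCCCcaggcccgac
Sept8: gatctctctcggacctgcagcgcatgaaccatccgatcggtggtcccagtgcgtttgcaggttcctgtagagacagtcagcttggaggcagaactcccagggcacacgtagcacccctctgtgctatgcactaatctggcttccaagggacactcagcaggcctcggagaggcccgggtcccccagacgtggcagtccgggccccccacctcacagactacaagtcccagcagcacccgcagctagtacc
Anln: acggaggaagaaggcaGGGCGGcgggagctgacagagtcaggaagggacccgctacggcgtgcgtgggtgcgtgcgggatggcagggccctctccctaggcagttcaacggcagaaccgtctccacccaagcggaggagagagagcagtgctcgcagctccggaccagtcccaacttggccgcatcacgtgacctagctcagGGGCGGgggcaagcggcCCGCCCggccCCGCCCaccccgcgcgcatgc
Sept7: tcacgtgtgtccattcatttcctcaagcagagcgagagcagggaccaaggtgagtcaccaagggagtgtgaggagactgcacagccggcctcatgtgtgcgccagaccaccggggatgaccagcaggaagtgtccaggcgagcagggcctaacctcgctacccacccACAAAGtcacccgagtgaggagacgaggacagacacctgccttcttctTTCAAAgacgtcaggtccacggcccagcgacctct

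Both strands were searched for GGGCGG, for the SOX cores ACAAAG and ACAATG, the MYRF cores CTGGCAC and CTGGTAC, the E-box CAGCTG and the CHR element TTTGAA, none of which contains another. Anln had 4 GC boxes, Sept2 had 2, Sept4 had 1, and the windows of Sept7 and Sept8 had 0, where 32.7% of 32851 RefSeq windows of this length hold at least 1. The SOX core, in Sept7 alone of the 5, is in 25.2% of windows, and the CHR element, again in Sept7, is in 16.0%. The MYRF core and the E-box, in 5.93% and 13.0% of windows, were not in these windows. The G and C content was 70.4% in Anln, 64.8% in Sept2, 62.0% in Sept8, 59.6% in Sept7 and 55.2% in Sept4, beside a median of 52.4% over all windows.

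On mm10, in the coordinates of the count files, Sept2 lies on chromosome 1 from 93478993 to 93509732 with 13 merged exons, and Sept7 on chromosome 9 from 25252439 to 25308571 with 13. Sept4 and Sept8 are both on chromosome 11, from 87578389 to 87590539 and from 53519736 to 53544096, with 13 and 10 merged exons. Anln is on chromosome 9 from 22331214 to 22389206 on the minus strand with 24, and the septins of the sheath are on the plus strand. Exons of the 5 members overlap those of no other gene in the files. None of the runs of 50 bases in their longest GENCODE M21 transcripts is found unchanged in a transcript of another gene. Copies with mismatches and copies outside annotated transcripts were not searched.

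Sept7, the septin that other septins need to form filaments, had 279, 417 and 163 CPM in NF1 f/f libraries 1, 2 and 3, against 381, 417 and 429 CPM in Ctrl libraries 1, 2 and 3. NF1 f/f libraries 1 and 3 lay below every Ctrl library and library 2 lay among them, so the groups overlapped, as they did for all 5 members, whereas 24% of all genes had no overlap. The groups differed by -0.51 on the log2 scale (SE 0.33), with an adjusted p of 0.442 by edgeR.

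Sept2 and Sept4 belong to the same septin subgroup. Sept2, which is made in many cell types, had 106, 229 and 126 CPM in NF1 f/f libraries 1, 2 and 3, against 248, 208 and 235 CPM in Ctrl libraries 1, 2 and 3. NF1 f/f libraries 1 and 3 were again below every Ctrl library, and the groups differed by -0.59 on the log2 scale (SE 0.31), with an adjusted p of 0.343 by edgeR. Sept4 had 126, 413 and 102 CPM in NF1 f/f libraries 1, 2 and 3, against 336, 395 and 374 CPM in Ctrl libraries 1, 2 and 3. NF1 f/f library 2 had the highest Sept4 value of all 6 libraries, and NF1 f/f libraries 1 and 3 had the lowest. For Sept4 the log2 difference was -0.79, with an SE of 0.49 and an adjusted p of 0.418 by edgeR.

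Sept8, of the subgroup of Sept6, had 93.1, 260 and 90.3 CPM in NF1 f/f libraries 1, 2 and 3, against 160, 194 and 187 CPM in Ctrl libraries 1, 2 and 3. In NF1 f/f library 2 it stood at 144% of the Ctrl mean, above all 3 Ctrl libraries, which was the highest such value of the 5 members in that library. The log2 difference of -0.29 had an SE of 0.40 and an adjusted p of 0.743 by edgeR.

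Anln, which encodes anillin, a protein that links septins to actin, myosin and the GTPase RhoA, had 164, 740 and 128 CPM in NF1 f/f libraries 1, 2 and 3. It had 685, 893 and 822 CPM in Ctrl libraries 1, 2 and 3. NF1 f/f libraries 1 and 3 held 20.5% and 16.0% of the Ctrl mean, the lowest of the 5 members in both libraries, while NF1 f/f library 2 held 92.5% and overlapped with Ctrl. The log2 fold change of -1.22 was the lowest of the 5 (SE 0.60, edgeR adjusted p 0.313), and 5.35% of all genes tested had a lower one. Counts behind these values ran from 1294 to 21540 per gene and library, for which counting error alone is 5.45% to 1.34% at 95% confidence.

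**Figure D1:**
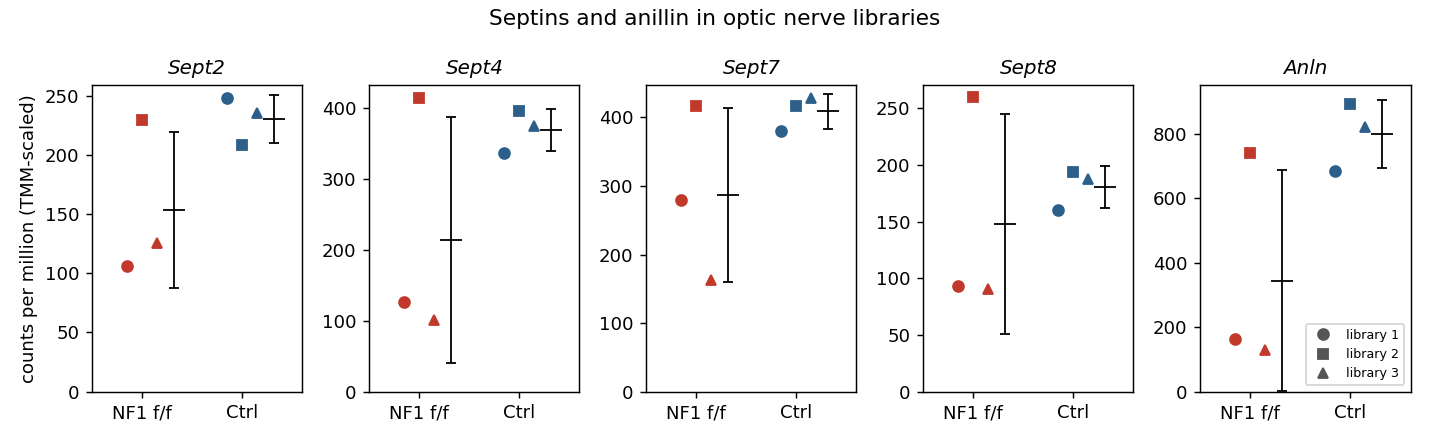
Points are single libraries, with CPM on linear y axes that start at 0 and NF1 f/f left of Ctrl in each panel. The bars give mean ± SD over 3 libraries, and NF1 f/f libraries 1 and 3 lie below all Ctrl libraries in each panel, with library 2 near or above them.

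Without NF1 f/f library 2, all 5 members fell by edgeR. In that comparison 27% of the 16857 genes tested passed in either direction and 13.8% fell, so a fall was common. The log2 fold change by edgeR was -2.45 for Anln (SE 0.23, adjusted p 5.72e-05) and -1.69 for Sept4 (SE 0.21, adjusted p 0.000216). It was -0.98 for Sept2 (adjusted p 0.00435), -0.97 for Sept8 (adjusted p 0.00444) and -0.88 for Sept7 (adjusted p 0.0217). In place among all genes, 2.57% had a lower log2 fold change than Anln, 7.62% than Sept4, and 17% to 19% than Sept2, Sept7 and Sept8. The library was left out after its values were known, so these calls describe NF1 f/f libraries 1 and 3 and not the genotype. The same limit holds for every rise or fall of other genes given below without NF1 f/f library 2. When another library was left out in its place, 0 of 5 members passed in each case, where 0.977%, 1.19%, 0.306%, 0.488% and 0.675% of all genes passed without NF1 f/f library 1, NF1 f/f library 3 and Ctrl libraries 1, 2 and 3 in turn.

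The 5 members were not lowered alike in NF1 f/f libraries 1 and 3. Sept4 held 34.1% and 27.6% of its Ctrl mean there, Sept2 and Sept8 between 46.2% and 54.5%, and Sept7 68.3% and 39.9%. To set members against one another, the log2 ratio of each of the 10 pairs was taken within a library, and the groups were set against each other with an exact two-sided permutation test, in which 3 libraries against 3 can give no p below 0.1. The ratio of Sept8 to Anln was -0.82, -1.51 and -0.50 in NF1 f/f libraries 1, 2 and 3, against -2.10, -2.20 and -2.13 in Ctrl libraries 1, 2 and 3. It was thus higher in all 3 NF1 f/f libraries, library 2 included, by 1.20 on average (exact p 0.1, adjusted p 0.25 over 10 pairs).

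The ratios of Sept7 and Sept4 to Anln were higher by 1.06 and 0.59 with no overlap (exact p 0.1 and adjusted p 0.25 each). Across all genes tested, 32.3% had such a higher ratio to Anln with no overlap. The ratio of Sept4 to Sept8 was 0.43, 0.67 and 0.17 in NF1 f/f libraries 1, 2 and 3, against 1.07, 1.02 and 1.00 in Ctrl libraries 1, 2 and 3, lower by 0.61 with no overlap (exact p 0.1, adjusted p 0.25), as 6.7% of genes were against Sept8. Groups overlapped in the other 6 pairs, and no pair passed after adjustment, which this design cannot reach. For Sept2 against Sept7 the difference was -0.05 (exact p 1) and for Sept7 against Sept8 it was -0.14 (exact p 0.6). The between-library spread in NF1 f/f was 0.51 and 0.48 (SD) for these pairs, so differences of that size between the members were not detectable.

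Levels were compared between genes as CPM per kilobase of exon. In Ctrl nerves Sept4 was highest, with 199 ± 16.1 CPM per kilobase (SD, n = 3), then Sept7 with 162 ± 9.87, Anln with 148 ± 19.5, Sept2 with 69.2 ± 6.09 and Sept8 with 39.0 ± 3.93. Sept7 and Anln did not differ beyond their spread, and their order was the reverse in Ctrl library 2, while the ranges of the other neighbours did not overlap. In NF1 f/f nerves the order of the means was Sept4 with 115 ± 93.5, Sept7 with 113 ± 50.3, Anln with 63.5 ± 63.4, Sept2 with 46.1 ± 19.8 and Sept8 with 31.9 ± 21.0 CPM per kilobase, with wide overlap between neighbours. NF1 f/f library 2 had the order of the Ctrl means, while in NF1 f/f libraries 1 and 3 Sept7 came first and Anln came after Sept2.

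The 5 members together summed to 260, 649 and 200 CPM per kilobase in NF1 f/f libraries 1, 2 and 3, against 567, 647 and 634 in Ctrl libraries 1, 2 and 3. Anln made up 11.6%, 21.0% and 11.8% of that sum in NF1 f/f libraries 1, 2 and 3, against 22.3%, 25.5% and 23.9% in Ctrl libraries 1, 2 and 3. Its share was lower in each NF1 f/f library than in any Ctrl library, though NF1 f/f library 2 was close to Ctrl library 1. Sept8 made up 7.72%, 8.66% and 9.76% in NF1 f/f, against 6.09%, 6.48% and 6.39% in Ctrl, and so its share was higher in each NF1 f/f library. These shares are parts of the same sum, so they depend on one another and on the ratios given above. They were not computed for all genes, of which 32.3% had a higher ratio to Anln with no overlap.

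**Figure D2:**
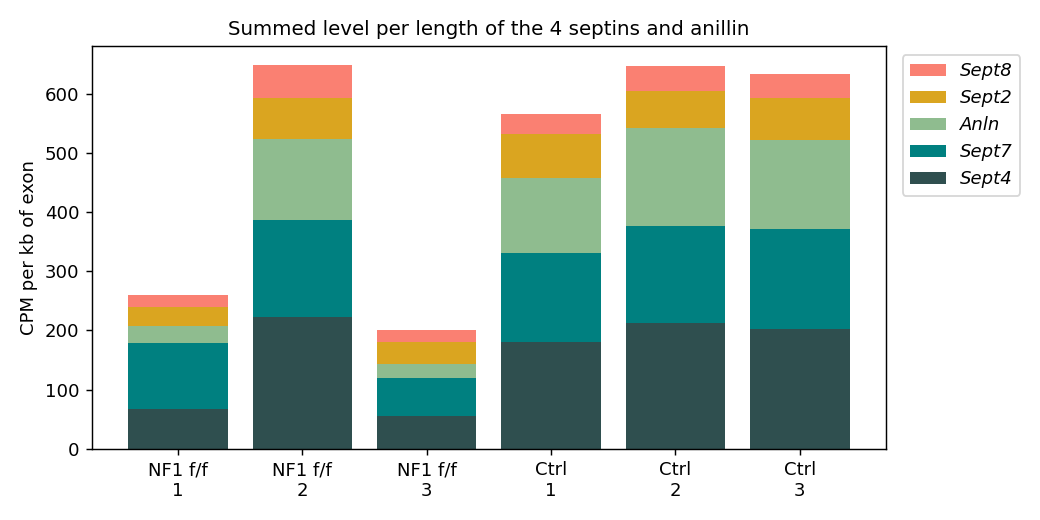
Bars give the summed level of the 5 genes in CPM per kilobase of exon, from 0, for each library, split by gene. The sum is 260 and 200 in NF1 f/f libraries 1 and 3 and 567 to 649 in the other libraries, and the Anln segment is a smaller part of each NF1 f/f bar than of any Ctrl bar.

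Myelin genes were likewise low in NF1 f/f libraries 1 and 3. Mbp, which encodes myelin basic protein, had 2719, 17890 and 1939 CPM in NF1 f/f libraries 1, 2 and 3, against 14348, 13553 and 13014 CPM in Ctrl libraries 1, 2 and 3. Over all 6 libraries 0 of the 22 myelin genes passed, where 0.337% of all genes passed as lower. Their median log2 fold change was -0.91, with all 22 negative, beside a median of -0.0017 over all genes. Without NF1 f/f library 2 all 22 fell, with a median of -2.24, where 13.8% of all genes fell.

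The level of each member was then set against the mean log2 CPM of the 22 myelin genes in the same library, a ratio that library scaling barely moves. For Anln it was 0.19, 0.23 and 0.30 in NF1 f/f libraries 1, 2 and 3, against 0.31, 0.54 and 0.62 in Ctrl libraries 1, 2 and 3. The difference of -0.25 was small beside the spread of Anln itself, and the highest NF1 f/f and lowest Ctrl values nearly met (exact permutation p 0.1, adjusted p 0.25 over 5 members). For Sept8 the ratio was -0.63, -1.28 and -0.20 in NF1 f/f libraries 1, 2 and 3, against -1.79, -1.66 and -1.51 in Ctrl libraries 1, 2 and 3, a difference of 0.95 with no overlap (exact p 0.1, adjusted p 0.25). Ratios that were higher with no overlap were found for 16.4% of all genes, and lower ones for 0.49%. The 6 libraries are too few for either to pass.

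The ratio of Sept7 to the myelin genes was 0.95, -0.60 and 0.65 in NF1 f/f libraries 1, 2 and 3, against -0.54, -0.56 and -0.32 in Ctrl libraries 1, 2 and 3. It was higher in NF1 f/f libraries 1 and 3 and at the Ctrl level in library 2 (exact p 0.4, adjusted p 0.40). The ratio of Sept2 was likewise higher in NF1 f/f libraries 1 and 3, with -0.44, -1.46 and 0.28 in NF1 f/f and -1.16, -1.56 and -1.18 in Ctrl (exact p 0.3, adjusted p 0.375). Sept4 lay between, with -0.20, -0.61 and -0.03 in NF1 f/f and -0.72, -0.64 and -0.52 in Ctrl (exact p 0.2, adjusted p 0.333).

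**Figure D3:**
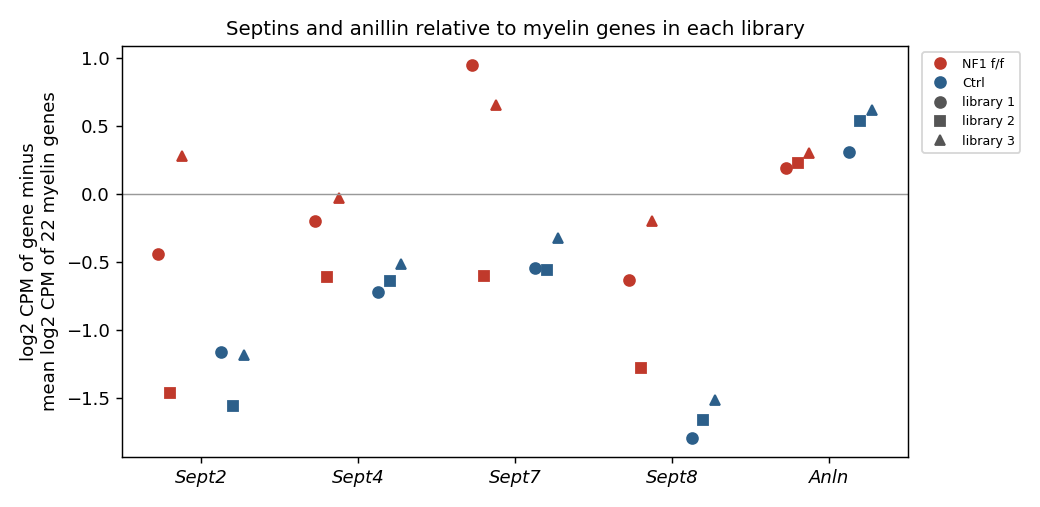
Each point is 1 library, NF1 f/f left of Ctrl for each gene, with the log2 CPM of the gene minus the mean log2 CPM of 22 myelin genes on the y axis. The Anln points span 0.19 to 0.62 over all 6 libraries, while those of Sept7 span -0.60 to 0.95 and those of Sept2 -1.56 to 0.28.

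The likeness of profiles was measured as the root mean square difference of centred log2 CPM over the 6 libraries, among 10651 other genes with a mean of at least 10 CPM. It is a description of these 6 libraries, which share the labelled tissue and protocol but differ in the neuron, striatal and fibroblast markers given above. Of the 22 myelin genes, 20 were among the 500 genes most like Anln and 9 among the 500 most like Sept4, where 500 genes are 4.69% of those ranked. None was among the 500 most like Sept2, Sept7 or Sept8. The median difference from the myelin genes was 0.29 log2 units for Anln and 0.36 for Sept4, against 0.72 for Sept2, 0.70 for Sept7 and 0.63 for Sept8. From all genes ranked, the median difference was 1.19 for Anln, 0.88 for Sept4, 0.57 for Sept2, 0.59 for Sept7 and 0.64 for Sept8. Profiles were centred but not scaled, so the measure counts the size of a swing as well as its shape. A gene with the shape of the myelin genes but a smaller swing is therefore not near to them.

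Among members, Sept2 and Sept8 were the most alike pair, at 0.26 log2 units, and Sept2 and Anln the least, at 0.73. From the side of Anln, Sept4 was the nearest member, at place 203 of 10651. The single genes nearest to Anln were Gfap, an intermediate filament gene of astrocytes, at 0.07 log2 units, then Nipal4, Aldh1a1, Nbl1 and Vtn. Nearest to Sept4 were Fah, Tagln2, Srpk3, the choline transporter gene Slc44a1 and Josd2, at 0.06 to 0.10. Sept7 had Itm2b, Prdx1, Aldh7a1, Il18 and Jun nearest, and Sept2 had Gpr116, Tmem144, Lrrc1, Slc14a1 and Capns1. Nearest to Sept8, at 0.10 to 0.14, were Cd33, Lair1, Map4, Eci1 and Rftn2. None of these 25 genes belongs to the myelin list.

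The other septins had no common direction, and neither rises nor falls passed by edgeR over all 6 libraries. Of the 9 other septin genes, 7 were tested and 0 passed by edgeR, where 3.29% of all genes did. Their median log2 fold change was 0.06. Sept12 had 0 counts in all libraries and Sept14 was not tested. Sept3, a septin of neurons, had 428, 141 and 341 CPM in NF1 f/f libraries 1, 2 and 3, against 161, 136 and 133 CPM in Ctrl libraries 1, 2 and 3. NF1 f/f library 2 lay among the Ctrl libraries, and the log2 difference was 1.08, with an SE of 0.38 and an adjusted p of 0.166 by edgeR. Sept5, a septin of nerve terminals, had 65.6, 19.0 and 33.4 CPM in NF1 f/f, against 17.1, 13.5 and 14.6 CPM in Ctrl. It was higher in all 3 NF1 f/f libraries with no overlap, as were 12.5% of all genes. The log2 difference was 1.39 (SE 0.41), with an adjusted p of 0.115 by edgeR and 0.0208 by DESeq2, where 9.17% of all genes passed by DESeq2. Exons of Sept5 overlap those of Gp1bb by 593 bases on the same strand, so its values are uncertain.

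Without NF1 f/f library 2, Sept3 rose by 1.43 and Sept5 by 1.72 on the log2 scale (edgeR adjusted p 0.000428 and 0.00167), where 13.2% of genes rose. In the same libraries, 1 and 3, the summed neuron markers were 9332 and 7086 CPM, and in NF1 f/f library 2, where Sept3 was at the Ctrl level, they were 2843 CPM. Whether those neuron transcripts account for Sept3 and Sept5 was not tested. Sept11 had a log2 fold change of 0.29, Sept6 of 0.06, Sept9 of -0.08 and Sept10 of -0.14, and Sept1, with at most 2.74 CPM in any library, of -1.25. Per length, Sept2, Sept4, Sept7 and Sept8 made up 58.3%, 87.1% and 54.4% of the level of all septins in NF1 f/f libraries 1, 2 and 3, against 83.5%, 86.1% and 86.6% in Ctrl libraries 1, 2 and 3.

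**Figure D4:**
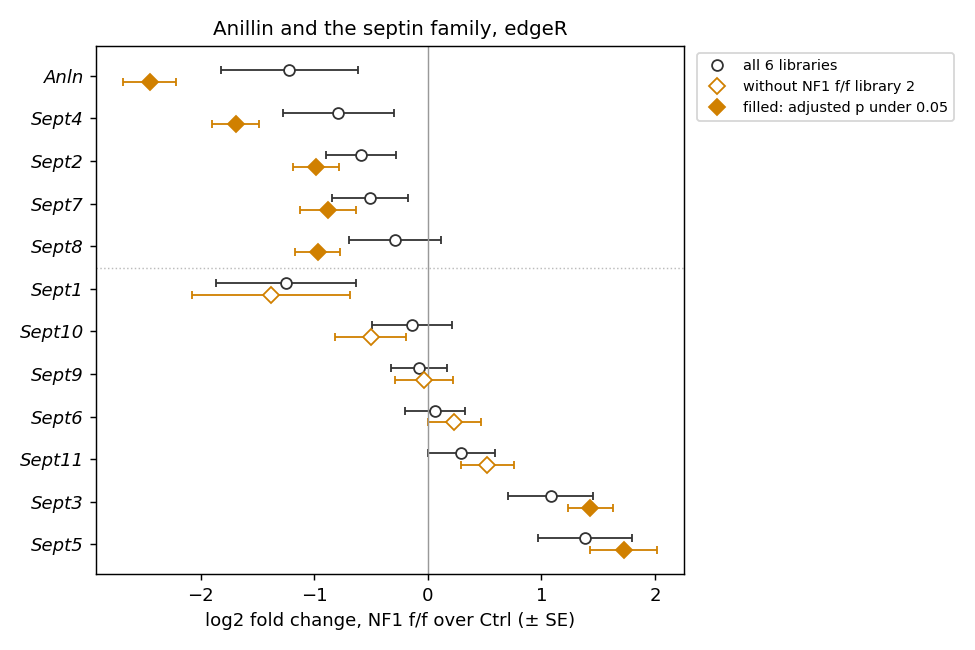
Log2 fold changes of NF1 f/f over Ctrl with their SE, for the 5 members above the dotted line and 7 other septins below it. Circles use all 6 libraries, with none filled, and diamonds leave out NF1 f/f library 2, where all 5 members, Sept3 and Sept5 have an adjusted p under 0.05 (filled).

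Anillin is best known from dividing cells, where it organises the cleavage furrow. Per length, Anln was above each of the cell division genes measured in every library. The highest level of any of 14 cytokinesis and cell division genes in any library was 6.85 CPM per kilobase in NF1 f/f and 5.72 in Ctrl, whereas the lowest level of Anln was 23.6 in NF1 f/f and 126 in Ctrl. None of the 14 passed in NF1 f/f against Ctrl over all 6 libraries or without NF1 f/f library 2, where 3.29% and 27% of all genes passed. The median log2 fold changes of the 14 were 0.11 and 0.07 in turn. Mki67, a proliferation marker, had 21.0, 24.7 and 13.0 CPM in NF1 f/f libraries 1, 2 and 3, against 12.4, 11.1 and 9.50 CPM in Ctrl libraries 1, 2 and 3. The log2 difference was 0.83, with an SE of 0.31 and an adjusted p of 0.187 by edgeR. Mki67 had the smallest p of the 14 and was the only 1 of them higher with no overlap, as were 12.5% of all genes. The log2 fold change was negative for 5 of the 14.

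Cdc42 is a small GTPase whose effectors of the Cdc42ep family bind septins. Of 6 genes, 0 passed by edgeR over all libraries, where 3.29% of all genes did, and the median log2 fold change was -1.08. Cdc42ep1 had 5.45, 20.3 and 7.05 CPM in NF1 f/f libraries 1, 2 and 3, against 46.0, 29.1 and 25.6 CPM in Ctrl libraries 1, 2 and 3 (log2 fold change -1.62, SE 0.50, edgeR adjusted p 0.122). Cdc42ep2 had 7.23, 20.1 and 4.12 CPM in NF1 f/f and 32.3, 36.6 and 20.7 CPM in Ctrl. Both were below Ctrl in NF1 f/f library 2 as well, where no septin of the sheath was, though by a narrow margin for Cdc42ep2. The reads of Cdc42ep1 and of the opposite-strand gene Lgals2 cannot be told apart over 43 bases of exon. Cdc42ep5 was too low to place, since its groups were separated by 1.51 CPM (20 counts) in NF1 f/f library 2 against 1.54 CPM (37 counts) in Ctrl library 3, which is within counting error. Cdc42ep3 was higher with no overlap, at 8.58, 6.12 and 10.5 CPM in NF1 f/f and 3.37, 3.65 and 2.82 CPM in Ctrl (log2 fold change 1.35, edgeR adjusted p 0.0854). Of all genes, 11.5% were lower and 12.5% higher with no overlap. Without NF1 f/f library 2, Cdc42ep1, Cdc42ep2 and Cdc42ep4 fell and Cdc42ep3 rose, where 13.8% of all genes fell and 13.2% rose. Cdc42 itself had a log2 fold change of -0.14 over all libraries. By DESeq2 over all libraries Cdc42ep1, Cdc42ep2 and Cdc42ep3 passed (adjusted p 0.0162, 0.0421 and 0.00926), where 9.17% of genes did.

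PI(4,5)P2 is made by kinases of the Pip5k1 and Pip4k2 families and removed by phosphatases such as Synj1 and Synj2. Of 12 such genes, 0 passed by edgeR over all libraries, where 3.29% of all genes did, and the median log2 fold change was 0.37. Pip5k1c had 67.8, 32.5 and 45.9 CPM in NF1 f/f libraries 1, 2 and 3, against 24.7, 22.9 and 19.1 CPM in Ctrl libraries 1, 2 and 3 (log2 fold change 1.13, SE 0.30, edgeR adjusted p 0.0818, and 0.0148 by DESeq2). By DESeq2, 9.17% of all genes passed. Pip4k2a averaged 251 ± 174 CPM in NF1 f/f and 447 ± 80.7 CPM in Ctrl (SD, n = 3 each). Without NF1 f/f library 2, Pip5k1a, Pip5k1b, Pip5k1c and Synj1 were among the 5 that rose, and Pip4k2a and Synj2 fell. Of all genes, 13.2% rose and 13.8% fell in that comparison. Exons of Synj2 and Synj1 overlap genes on the other strand by 297 and 60 bases, over which counts without strand are uncertain.

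Of 9 matched partners of anillin, 0 passed by edgeR over all libraries, where 3.29% of all genes did, with a median log2 fold change of 0.20. Cit, which encodes citron kinase, had 61.3, 27.6 and 51.0 CPM in NF1 f/f libraries 1, 2 and 3, against 18.4, 19.7 and 27.2 CPM in Ctrl libraries 1, 2 and 3 (log2 fold change 1.10, SE 0.33, edgeR adjusted p 0.114, and 0.0322 by DESeq2). By DESeq2, 9.17% of all genes passed. The myosin gene Myh10 and Racgap1, a regulator of small GTPases, had log2 fold changes of 0.87 and 0.82, and the adaptor gene Cd2ap of -0.42. Without NF1 f/f library 2, Racgap1, Myh10 and Cit rose while Rhoa and the myosin gene Myh9 fell. In that comparison 13.2% of all genes rose and 13.8% fell.

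Among the controls, library 1, the Nf1flox/flox one, had the lowest Sept4, Sept7, Sept8 and Anln and the highest Sept2, at 248 CPM against 208 and 235 CPM in the Nf1flox/+ libraries 2 and 3. With 1 library of that genotype this difference has no replicate check. Against Ctrl libraries 2 and 3 alone, which is the same run as leaving out Ctrl library 1, 0 of 5 passed by edgeR, where 0.306% of all genes did. The log2 fold change was -1.31 for Anln, -0.84 for Sept4, -0.55 for Sept7, -0.52 for Sept2 and -0.36 for Sept8. When Xist, on the log2 scale, was a covariate, the values were -1.30 for Anln, -0.83 for Sept4, -0.49 for Sept7, -0.43 for Sept2 and -0.35 for Sept8, and 0 of 5 passed, as did 0% of all genes.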

How the data were processed

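Per the labels' protocols, total RNA of whole optic nerves was amplified with a NuGEN Ovation kit and sequenced from Nextera XT libraries. The authors deposited 1 raw count per gene and library, unscaled. Per the file headers, featureCounts 1.4.6-p4 counted read pairs in exons of the UCSC mm10 annotation and ignored strand. TopHat is named in the submitters' processing notes. Counts do not separate overlapping genes on opposite strands.

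All 6 libraries were fitted with edgeR 4.0.16 in R 4.3.3 (TMM scaling, filterByExpr with a minimum count of 10, quasi-likelihood F tests, no covariate). A gene passed at an adjusted p (Benjamini-Hochberg, 16315 genes) under 0.05. The SE is the log2 fold change divided by the square root of F. The biological coefficient of variation was 0.362. CPM uses TMM-scaled library sizes, and log2 CPM a prior count of 2. Within-library ratios were compared by two-sided exact permutation tests in scipy 1.17.1. Reads copied by PCR share 1 source molecule, so intervals from counting give a lower limit of the error. No 2 libraries were duplicates: the lowest chi-square between any pair was 45.6 times its degrees of freedom. The script was tested on simulated data.

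Members, gene lists and tests were chosen with earlier results of these data known. Named are the 5 members, the other septins, up to 4 genes of each pathway list by smallest p, and the 5 genes nearest to each member. Cdc42, Cdc42ep4, Pip5k1b, Synj2, Rhoa, Myh9 and Mbp were chosen with their values in view. Some genes are not reported here. Lists of precursor, astrocyte, microglia, fibroblast and vessel markers, with 10 genes tested in each, had medians of -0.46, -0.53, -0.36, -1.52 and -1.14. There was 1 call among them, a lower endothelial gene, where 0.337% of all genes passed as lower. The Schwann list had a median of -0.91 and 1 higher call among 7 genes tested. The neuron and striatal lists had medians of 2.11 and 3.60 with 7 of 16 and 12 of 12 higher. Of all genes, 2.95% passed as higher. Alternatives were other scalings, filters and tools (limma 3.58.1, DESeq2 1.42.0), covariates, and leaving out libraries.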

Additional observations from a re-analysis of the deposited data

How the results depend on the processing

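No paired analysis was possible because the labels give no replicate numbers, and those used here follow the order of deposit. The members had 0 calls under each other scaling, filter, tool and covariate and with Nf1flox/+ controls alone, and kept their sign except where counts were scaled to the myelin list. That scaling, which moved the median of all genes by 1.82, gave 0.96 for Sept2, 0.39 for Sept4, 1.02 for Sept7 and 1.05 for Sept8, while Anln stayed below 0. It also gave 0.50 for Sept1, 1.43 for Sept10, 1.77 for Sept9, 0.47 for Pip4k2a, 1.41 for Cd2ap, 1.62 for Cdc42, 0.60 for Cdc42ep4, 0.52 for Synj2, 0.87 for Rhoa and 0.92 for Myh9, by construction since it holds the myelin genes level. The count of 537 changed genes was 3159 with that scaling, 1657 by DESeq2, 870 with no filter, 0 with the Xist covariate (1291 at an unadjusted p under 0.05 by edgeR) and 51 with Nf1flox/+ controls alone, the same run as without Ctrl library 1. It ranged from 51 to 4551 when each library was left out, the highest without NF1 f/f library 2. Of the 537 genes 482 were higher and 55 lower, against 3155 and 4 with myelin scaling and 1164 and 493 by DESeq2. The cause was not tested. When each library was left out in turn, log2 fold changes ranged from -2.45 to -0.82 for Anln, -1.69 to -0.45 for Sept4, -0.98 to -0.38 for Sept2, -0.88 to -0.23 for Sept7 and -0.97 to -0.031 for Sept8, with calls without NF1 f/f library 2 alone. Sept11 was -0.076 and Sept9 0.025 without NF1 f/f library 3, Sept10 ranged from -0.50 to 0.089 and was 0.039 with Nf1flox/+ controls alone, and Sept6 ranged from -0.13 to 0.23 and was -0.0076 with upper quartile scaling. Ratios to the myelin genes kept their sign in each alternative run, from -0.34 to -0.18 for Anln and 0.70 to 1.24 for Sept8 when libraries were left out. Sept2 against Sept7 ranged from -0.30 to 0.21 and was 0.055 with Nf1flox/+ controls alone. Sept7 against Sept8 ranged from -0.42 to 0.036. The other 8 pairs kept their sign.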
